A study of Equus caballus with 19 samples.

Results

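The genes described here are the nuclear-encoded subunits of the mitochondrial respiratory chain, read in equine tenocytes exposed to IL-1β with and without the IL-1 receptor antagonist IL1Ra. They were taken by gene name as every row that starts with NDUFA, NDUFB, NDUFC, NDUFS, NDUFV, UQCR or ATP5, as SDHA, SDHB, SDHC and SDHD, and as the COX4 to COX8 rows, leaving out the NDUFAF assembly factors. The rule found 73 genes among 29196 gene names, with the same 73 in both count tables, and 69 of them passed the filter on low values in each table. The rule itself uses names only.

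Respiratory chain complexes I to IV pass electrons from NADH and succinate to oxygen and pump protons across the inner mitochondrial membrane, and complex V, the ATP synthase, uses the proton gradient to make ATP. Complex I is the NADH dehydrogenase, complex II is succinate dehydrogenase (which is also an enzyme of the TCA cycle), complex III is the cytochrome bc1 complex and complex IV is cytochrome c oxidase. Most subunits are encoded in the nucleus and are imported into mitochondria, whereas a core set is encoded in mitochondrial DNA and is not analysed here. By complex, the 73 genes comprised 36 of complex I, 4 of complex II, 3 of complex III, 11 of complex IV and 19 of complex V, with NDUFA4 and its paralogue NDUFA4L2 counted under complex IV, where the NDUFA4 protein is found.

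The cells were wild-type adult tenocytes of the superficial digital flexor tendon, each line grown from 1 horse and embedded in bovine type 1 collagen gels for 14 days. The first batch compared 5 lines (lines 1 to 5) as unstimulated control and with 1 nM IL-1β, 10 libraries in all. A further 3 lines (lines 6 to 8) formed the second batch, in which each line was left unstimulated, given IL-1β at the same 1 nM dose, or given that dose together with IL1Ra at 100 ng/ml, 9 libraries in all. Each line gave 1 library per condition, so a line stands for a single donor.

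Values are normalised counts (read counts scaled between libraries by DESeq2, with each batch scaled on its own), so levels were compared only within a batch. Library totals ranged from 43.4 M to 49.2 M normalised counts (M, mega) over first-batch libraries and from 25.0 M to 34.6 M over second-batch ones, of which the IL-1β library of line 7 had the highest. That library stood apart for the subunits as well. The 73 genes took 0.810% of its normalised counts. Their share was 0.504% and 0.503% in the IL-1β libraries of lines 6 and 8 and 0.560% to 0.637% in the second-batch controls. Values without line 7 are given beside the main second-batch results of the 73 genes. In the first batch the share was 0.537% ± 0.0467 in control and 0.590% ± 0.0490 with IL-1β (SD, n = 5), and it was higher with IL-1β in each of the 5 lines.

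Tendon identity was checked with 12 tenocyte markers found in the tables. Their summed level was 1182500 to 1975460 normalised counts in the first-batch controls and 505550 to 940339 with IL-1β. Of the 11 tested, 8 fell with IL-1β and none rose, among them SCX (log2-fold change −4.25) and MKX (−3.95), and TNMD was listed at 0 in every first-batch library. Over all genes tested in this batch, 14.6% fell and 13.1% rose. Of 12 leukocyte markers only 2 were tested, of which 1 rose and none fell. In all first-batch controls 6 of the 12 were at 0, and summed levels were 322 to 2319 in control and 551 to 3974 with IL-1β. Endothelial markers summed to at most 92.0 in any first-batch library. Skeletal muscle markers summed to 1109 to 2237 in control and 53.7 to 207 with IL-1β, with MYH1, MYH2, MYOG and MB at 0 in every first-batch library, and adipocyte markers to 79.8 to 2742 in control and 295 to 2310 with IL-1β. Smooth muscle and pericyte markers were not low, since all 6 were tested and their sums were 21964 to 128273 in control and 26049 to 66506 with IL-1β, and 4 of the 6 fell. In bulk RNA, fewer cells of a type and less RNA per cell cannot be told apart, and the part of these marker changes in the subunit values was not tested.

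In the first batch most subunits had slightly higher levels with IL-1β, and most of the differences were small. The mean was higher for 62 of 69 subunits (49.7% of all 14719 genes tested), and 45 of 69, or 65.2%, were higher in every line (24.8% of all genes). The 2 groups did not overlap for 4 of the 69, or 5.80%, against 19.5% of all genes. The median log2-fold change was 0.22 over the subunits and −0.0034 over all genes. For 61 of the 69 the absolute log2-fold change was under 0.5.

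The test resolved only a minority of these small differences. At an adjusted p under 0.05 and any fold change (limma with Benjamini-Hochberg adjustment over all genes), 12 of 69 subunits were called, or 17.4%, against 27.7% of all genes. Of these, 11 rose, 15.9% of the 69 against 13.1% of all genes, and 1 fell, NDUFA4L2 (14.6% of all genes fell). The study's stricter definition of a DE gene also asks that the log2-fold change reach 1 in either direction, and only NDUFA4L2 met it, against 12.8% of all genes. At an unadjusted p under 0.05 there were 29 of 69, or 42.0%, against 39.5% of all genes. The count of 12 fell to 4, 3 and 2 without lines 1, 3 and 5. Taking the line as a block raised it to 39 of 69 (37 higher and 2 lower), or 56.5%, against 43.2% of all genes. In that fit 53.6% of the subunits were called higher, against 20.9% of all genes, and 22.4% of all genes were called lower. Of the 11 that rose without the block, NDUFV2 and ATP5PF kept an adjusted p under 0.05 whichever line was left out, and NDUFA7 did so except without line 5 (0.0519).

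**Figure D1:**
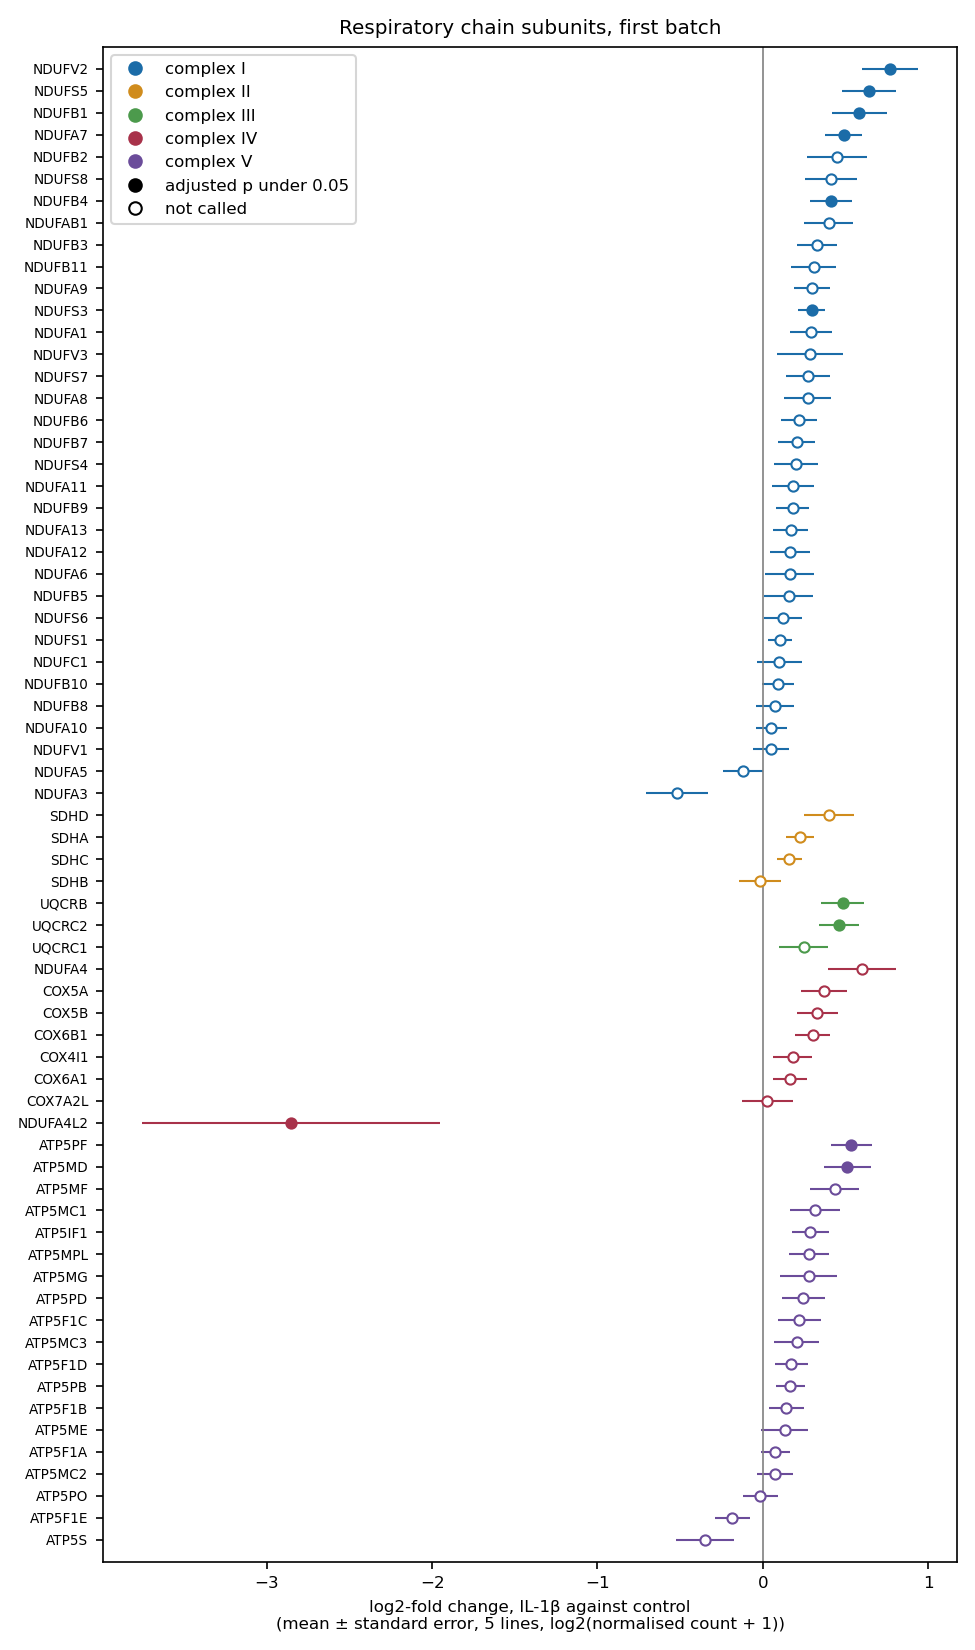
Log2-fold change of the tested subunits named or not called, with IL-1β against control in the first batch, sorted within each complex. Points are means over 5 lines, bars are standard errors and filled points have an adjusted p under 0.05. All but 7 points lie to the right of 0, and NDUFA4L2 lies far to the left at −2.85.

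The shift was seen in each of the 5 lines. The median ratio of IL-1β to control over the 69 subunits was 0.22, 0.17, 0.31, 0.15 and 0.32 on the log2 scale in lines 1 to 5, while the median over all genes stayed between −0.018 and 0.017. In these lines 61, 59, 61, 51 and 64 of the 69 subunits were higher with IL-1β. Line 4 had the smallest median and line 5 the largest.

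Complex I, the largest of the complexes, had a median log2-fold change of 0.22, with 33 of its 35 tested subunits higher on average. Of these, 7 rose, among them NDUFV2, NDUFS5, NDUFB1, NDUFA7, NDUFB4 and NDUFS3, and with the line as a block 19 rose and 1 fell. Over all genes tested, 13.1% rose, and with the block 20.9% rose and 22.4% fell. NDUFS5 was lost without lines 3 or 5, NDUFB1 without lines 1, 3 or 5 and NDUFS3 without any line other than line 4. The called genes come from both arms of the complex, the peripheral arm that oxidises NADH and the membrane arm that pumps protons.

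NDUFV2, an iron-sulphur core subunit of the NADH-oxidising module, showed the largest rise of any subunit. Control libraries of lines 1 to 5 held 4023, 4957, 3773, 3144 and 2945 normalised counts, and IL-1β libraries held 7859, 6713, 7245, 5012 and 5253. Every IL-1β library lay above every control library. The log2-fold change was 0.77 ± 0.17 (SE, n = 5 lines), with an adjusted p of 0.00772.

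NDUFS3, a core subunit of the arm that passes electrons on to ubiquinone, went from 1428, 1509, 1459, 1342 and 1450 normalised counts in the controls of lines 1 to 5 to 1809, 1830, 1814, 1515 and 1875 with IL-1β. The groups did not overlap, although line 4 lay only just above the highest control, and the log2-fold change was 0.30 ± 0.082 (adjusted p = 0.0221).

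Among the accessory subunits of complex I, NDUFA7 of the peripheral arm had 1169, 1318, 1214, 1125 and 1219 normalised counts in control and 1577, 1912, 1904, 1340 and 1832 with IL-1β. Again no IL-1β library fell below a control library, and the log2-fold change was 0.49 ± 0.11 (adjusted p = 0.00896). NDUFS5, an accessory subunit on the intermembrane-space side, rose from 1294 to 2192 in control to 1880 to 2895 with IL-1β, by 0.64 ± 0.16 on the log2 scale (adjusted p = 0.0146). The groups overlapped because line 2 had the highest control and line 4 the lowest IL-1β value, but each line was higher with IL-1β.

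NDUFB1 and NDUFB4, small accessory subunits of the membrane arm, behaved alike. NDUFB1 rose by 0.58 ± 0.17 (adjusted p = 0.0245) and NDUFB4 by 0.41 ± 0.13 (adjusted p = 0.0331), each in 5 of 5 lines. For NDUFB4, line 4 moved least, from 1168 to 1284 normalised counts, and leaving out any line but line 4 ended the call.

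NDUFA3, another accessory subunit of the membrane arm, had the largest decrease in complex I. Controls held 413, 308, 573, 345 and 362 normalised counts and IL-1β libraries 254, 308, 282, 226 and 300. The groups touched at line 2, where the 2 values were all but equal, and the lowest control was still the higher value. The log2-fold change was −0.52 ± 0.19 with an adjusted p of 0.0602, or 0.0426 with the line as a block.

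**Figure D2:**
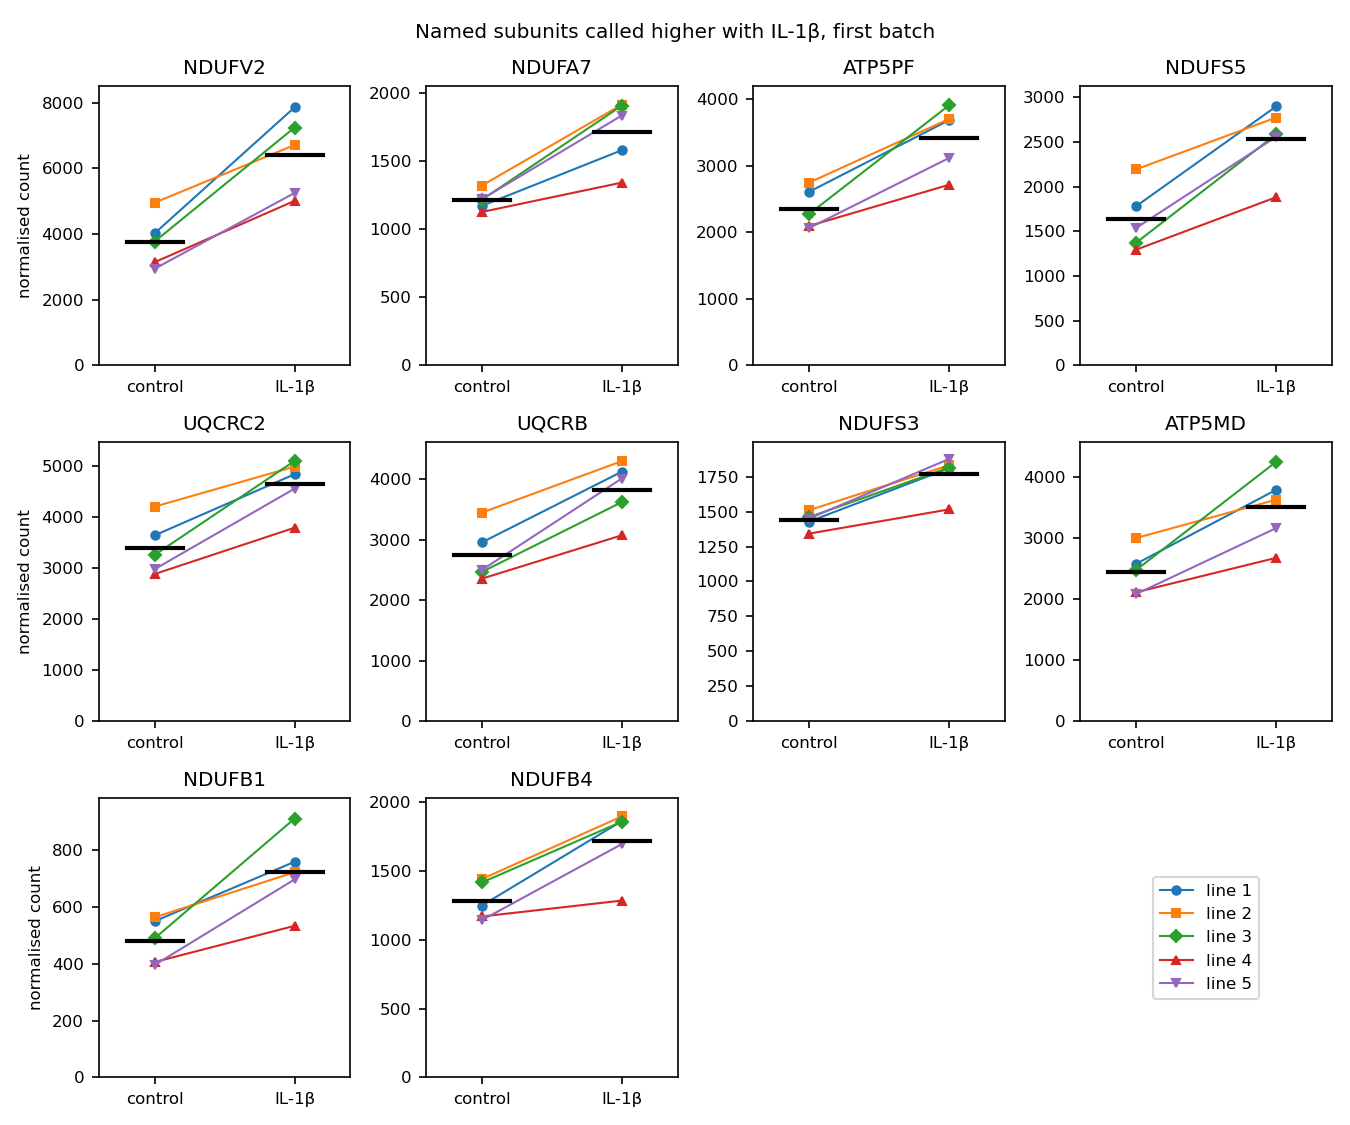
Normalised counts of the 10 named subunits that rose with IL-1β in the first batch, with axes from 0. Each coloured line joins the control and IL-1β libraries of 1 tenocyte line, and black bars are group means. All lines slope upward in all 10 panels, and line 4 has the lowest IL-1β value in each.

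Complex II links the chain to the TCA cycle, and none of its 4 subunits passed the test without the block. SDHA, the flavoprotein that oxidises succinate, had 6433 to 8269 normalised counts in control and 8242 to 9089 with IL-1β. SDHD, a membrane anchor, had 1898 to 2751 and 2272 to 3552. Both were higher in 5 of 5 lines, and the log2-fold changes were 0.23 ± 0.085 (adjusted p = 0.0712, 0.0381 with the line as a block) for SDHA and 0.40 ± 0.15 (0.0740, 0.00325 with the block) for SDHD. The other anchor, SDHC, gave 0.16 ± 0.074 (0.130, 0.0491 with the block).

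SDHB, the iron-sulphur subunit that sits between the flavoprotein and the anchors, did not share the shift of the other complex II genes in value. Its normalised counts were 1597, 1817, 2067, 1650 and 1459 in control and 1656, 1793, 2114, 1459 and 1496 with IL-1β, so that 3 lines were higher and 2 lower. The log2-fold change was −0.01 ± 0.13 (adjusted p = 0.947). Whether SDHB differed from SDHD in its response was not tested.

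Complex III had 3 subunits by the naming rule, all higher, with a median of 0.46. A further 5 of its subunits are listed under LOC numbers and gave values below that median, from −0.03 for UQCR11 to 0.45 for UQCR10. UQCRC2, a core protein, went from 3639, 4201, 3257, 2883 and 2977 normalised counts to 4834, 4984, 5094, 3788 and 4552, and rose by 0.46 ± 0.12 (adjusted p = 0.0179). UQCRB, a small subunit at the ubiquinone-binding side, went from 2359 to 3451 in control to 3076 to 4302 with IL-1β and rose by 0.48 ± 0.13 (adjusted p = 0.0184). Groups overlapped in both genes, and within each line IL-1β was higher. Both calls were lost without lines 1, 3 or 5. UQCRC1, the partner core protein of UQCRC2, gave 0.25 ± 0.15 (adjusted p = 0.248, 0.0287 with the line as a block).

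Complex IV subunits were mostly higher by small amounts, and none rose by the test without the block. COX5A gave a log2-fold change of 0.37 ± 0.14 (adjusted p = 0.0742), COX5B 0.33 ± 0.12 (0.0679) and COX6B1 0.30 ± 0.10 (0.0536), each higher in 5 of 5 lines. These 3 genes encode subunits of the nuclear-encoded shell around the catalytic core, and all passed with the line as a block (0.0139, 0.00699 and 0.00826). COX5A also passed without line 2, whose control library held 2819 normalised counts against 1771 to 1882 in the other controls.

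Isoform pairs were read next because subunits 4, 6A, 6B and 7A of complex IV have tissue-linked forms. COX4I1, the widely expressed isoform of subunit 4, had 6531 to 8437 normalised counts in control and 6906 to 10070 with IL-1β, and gave 0.18 ± 0.12 (adjusted p = 0.293). COX4I2, the isoform linked to low oxygen, was under 10 in every library and was not tested. Its first-batch values were 3.11, 3.76, 2.66, 5.96 and 8.43 in control and 0, 2.38, 2.07, 0 and 0 with IL-1β, and without the filter on low values it was called lower (log2-fold change −1.76, adjusted p = 0.0243).

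COX6A1, the widely expressed isoform, had 0.17 ± 0.10 (adjusted p = 0.261), and its muscle partner COX6A2 did not exceed 0.929 normalised counts in any first-batch library. COX7A2L, which takes part in joining complexes III and IV into supercomplexes, was higher in 3 lines and lower in 2, with a log2-fold change of 0.03 ± 0.15 (adjusted p = 0.921). COX7B2 was at most 8.47 in the first batch, and COX6A2 and COX7B2 were not tested either.

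NDUFA4L2 was the exception among the subunits. It is a paralogue of NDUFA4, known as a target of the hypoxia-inducible factor HIF-1 that restrains respiration in low oxygen. Control libraries of lines 1 to 5 held 18674, 14744, 5221, 17808 and 20900 normalised counts, and IL-1β libraries held 515, 2791, 367, 14408 and 3541. Each line was lower with IL-1β, but the size differed widely, since lines 1 and 3 fell to the lowest values while line 4 kept a level within the control range.

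The log2-fold change of NDUFA4L2 was −2.85 ± 0.90 (SE, n = 5 lines) with an adjusted p of 0.0377. Line ratios ran from −5.18 in line 1 to −0.31 in line 4. The call was lost when any line but line 4 was left out. Adjusted p was 0.133, 0.0936, 0.0518 and 0.103 without lines 1, 2, 3 and 5, and 0.0180 without line 4, where the log2-fold change was −3.49.

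NDUFA4 itself pointed the other way. Controls held 2395, 3082, 1678, 1551 and 1671 normalised counts and IL-1β libraries 3389, 3639, 2711, 2258 and 3397. Each line was higher with IL-1β, the groups overlapped through the high controls of lines 1 and 2, and the log2-fold change was 0.60 ± 0.21 (adjusted p = 0.0532, 0.00644 with the line as a block and 0.0296 without line 2). The difference between the responses of the 2 paralogues was not tested.

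**Figure D3:**
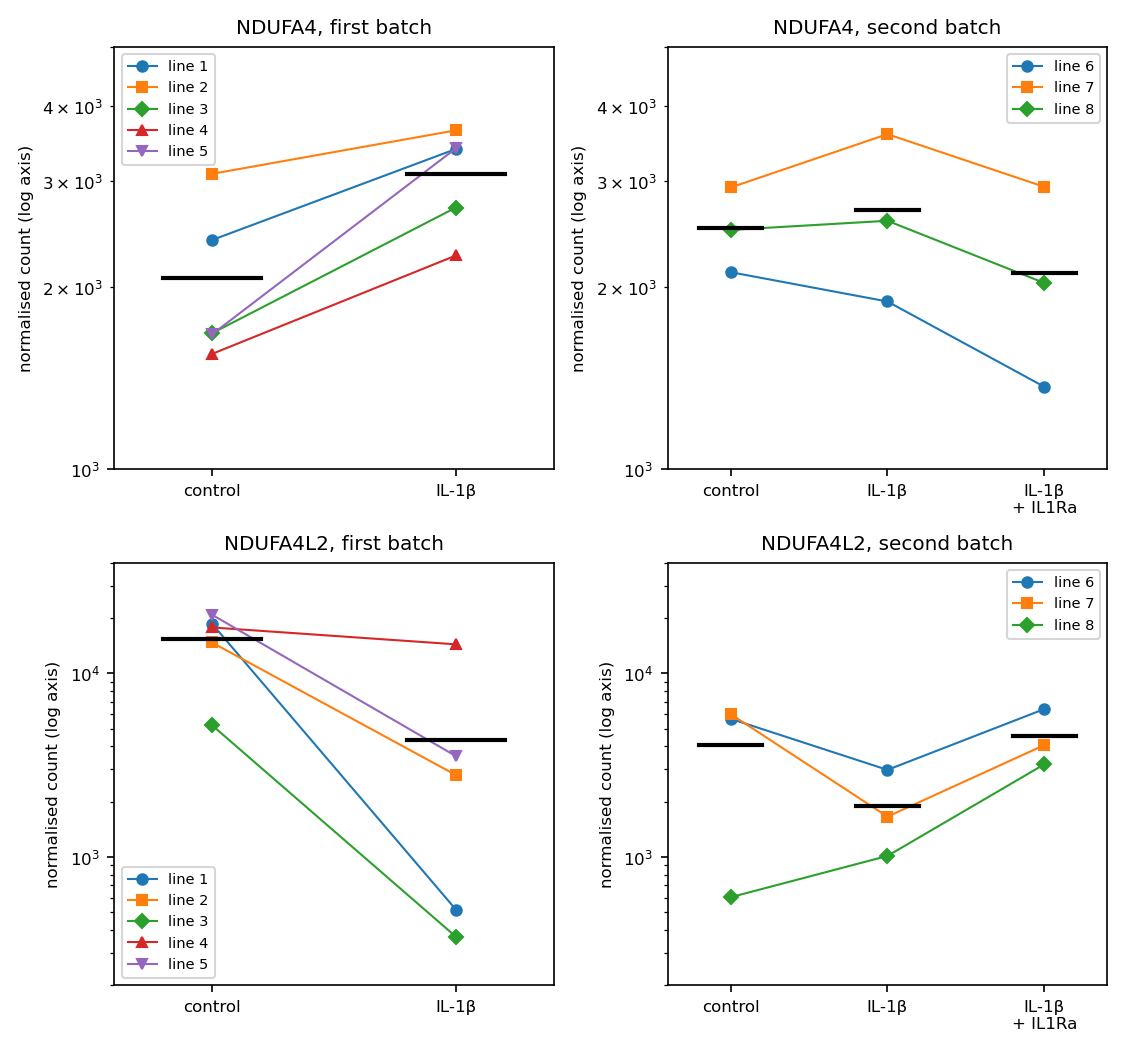
Normalised counts of NDUFA4 (top) and NDUFA4L2 (bottom) on log axes, in the first batch (left) and the second (right). Each coloured line joins the libraries of 1 tenocyte line, and black bars are group means. NDUFA4L2 falls from 5221 or more in every first-batch control to 3541 or less in 4 of 5 IL-1β libraries, while in the second batch the lines move in different directions.

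In complex V the median log2-fold change was 0.20, with 16 of 19 subunits higher, 2 called higher and 8 called higher with the line as a block. Over all genes tested, 49.7% had a higher mean, 13.1% were called higher and 20.9% were called higher with the block. ATP5PF, coupling factor 6 of the peripheral stalk, went from 2604, 2742, 2270, 2093 and 2062 normalised counts to 3679, 3697, 3902, 2710 and 3111. It rose by 0.54 ± 0.12 (adjusted p = 0.00984). ATP5MD, a small membrane subunit that helps synthase dimers form, went from 2580, 3002, 2478, 2114 and 2085 to 3791, 3629, 4248, 2677 and 3164 and rose by 0.51 ± 0.14 (adjusted p = 0.0226). In both genes only the IL-1β library of line 4 lay within the control range, and the ATP5MD call was lost without lines 1, 3 or 5.

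The 3 genes for the membrane ring, ATP5MC1, ATP5MC2 and ATP5MC3, encode the same mature peptide and gave log2-fold changes of 0.32 ± 0.15, 0.07 ± 0.11 and 0.20 ± 0.14 (adjusted p = 0.151, 0.642 and 0.298). With the line as a block, ATP5MC1 passed (0.0136). ATP5IF1, the inhibitor that stops the synthase from running backwards, had 2291 to 3021 normalised counts in control and 2625 to 3531 with IL-1β, and gave 0.29 ± 0.11 (adjusted p = 0.0827, 0.00929 with the block).

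ATP5S had the lowest value of complex V, −0.35 ± 0.17 (adjusted p = 0.164), and was lower in 4 of 5 lines. It is named as a synthase gene but is not a structural subunit of the enzyme. Controls held 339, 392, 583, 557 and 392 normalised counts and IL-1β libraries 368, 340, 301, 353 and 377, so that only lines 3 and 4 moved by much.

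NDUFA2, an accessory subunit of the peripheral arm of complex I, was not tested. It was listed at 0 in 4 of 5 controls and 1 of 5 IL-1β libraries of the first batch, with at most 38.8 normalised counts. EIF2S2, a translation factor that every cell needs, was also listed at 0 in some libraries, so a listed 0 is not a measure of absence in these tables.

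Some subunits appear in the tables only under LOC numbers, and 13 could be matched to symbols by gene ID. They are COX6B2, COX6C, COX7A1, COX7A2, COX7B, COX7C, COX8A, NDUFC2, UQCR10, UQCR11, UQCRFS1, UQCRH and UQCRQ, and they lie outside the naming rule. In the first batch 12 of 13 were higher (49.7% of all genes), with a median log2-fold change of 0.24, close to the 0.22 of the named subunits. COX7A2 rose by 0.52 ± 0.14 (adjusted p = 0.0221), and 7 of 13 were called higher with the line as a block (20.9% of all genes). COX7A1, the muscle-linked partner of COX7A2, gave 0.59 ± 0.25 (adjusted p = 0.108, 0.0394 with the block). In the second batch 12 of 13 had a higher mean with IL-1β (49.3% of all genes). COX7A1, COX7A2 and UQCR10 were higher in every line (19.1% of all genes), and the others were not. Line 7 had the highest IL-1β level for all of them except COX6B2. COX7A1 gave 0.94 ± 0.45 (adjusted p = 0.478, 0.0460 with the block), with line ratios from 0.55 to 1.20 on the log2 scale.

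The spread between lines was moderate in the first batch and wide in the second. The coefficient of variation was taken for subunits with a group mean above 10 normalised counts. Its median was 13.4% in the first-batch controls and 13.3% with IL-1β. Of these subunits NDUFA4L2 varied most in both groups, at 39.7% and 134%. In the second batch the median was 14.0% in control, 41.9% with IL-1β and 22.3% with IL-1β plus IL1Ra.

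In the second batch, IL-1β against control gave a similar median, 0.21, and again 62 of 69 subunits with a higher mean (49.3% of all genes), but the lines disagreed. The median ratio was −0.26 in line 6, 0.71 in line 7 and 0.14 in line 8, and 8, 67 and 57 of the 69 subunits were higher. Only 8 of 69 were higher in every line (11.6%, against 19.1% of all 16705 genes tested). Without line 7 the median was −0.07 and 25 of 69 were higher, and without line 6 it was 0.42.

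No subunit was called in this comparison by limma, with or without the line as a block (background 0.341% and 6.10% of all genes), and 0 had an unadjusted p under 0.05, against 11.4% of all genes. With the block, 3 had an unadjusted p under 0.05, or 4.35%, against 22.2% of all genes. After scaling libraries to equal totals, 40 of 69 were higher and the median was 0.02, while the median of all genes moved to −0.19. Relative to all genes the subunits were then still 0.21 higher.

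**Figure D4:**
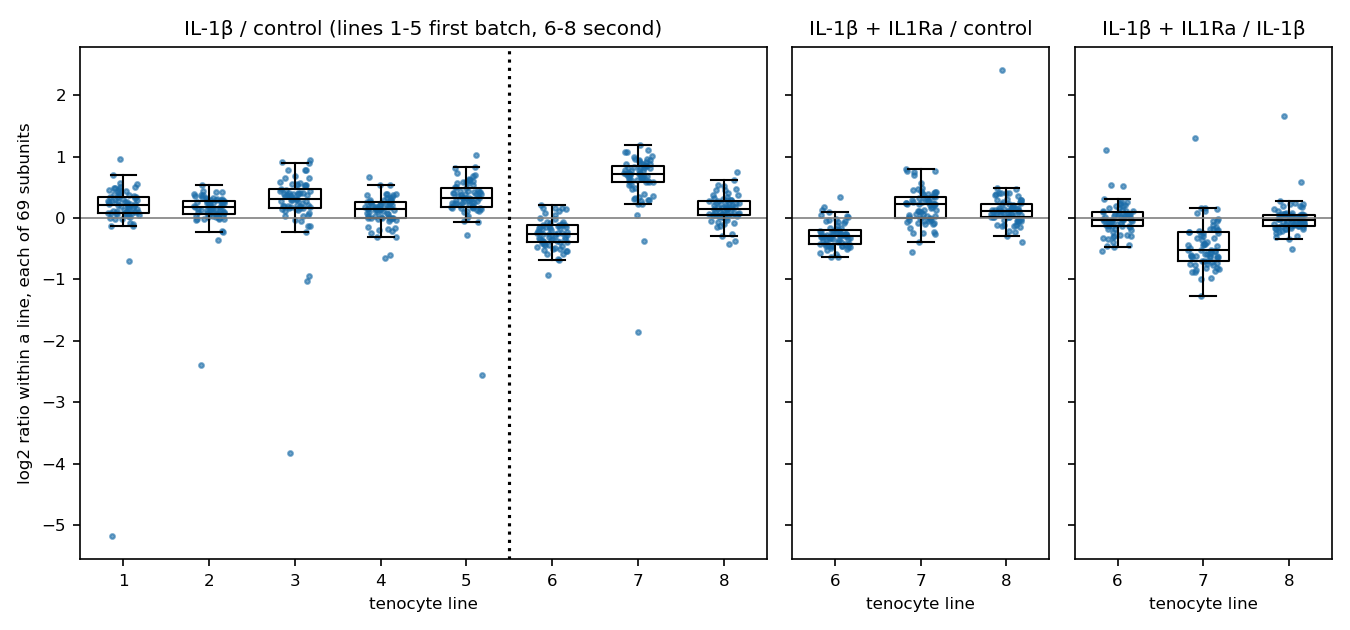
Log2 ratio of normalised counts within a line for each of the 69 subunits, with IL-1β over control (left, lines 1 to 8), IL-1β plus IL1Ra over control (middle) and IL-1β plus IL1Ra over IL-1β (right). Boxes give the median and quartiles. Medians are above 0 in lines 1 to 5 (0.15 to 0.32), below 0 in line 6 (−0.26) and highest in line 7 (0.71).

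ATP5PF had the smallest adjusted p of the subunits here, 0.468. Control libraries of lines 6 to 8 held 2475, 2382 and 1745 normalised counts, IL-1β libraries 2779, 4660 and 2682 and IL-1β plus IL1Ra libraries 2057, 3121 and 2309. IL-1β was above control in each line without overlap (2 of 69 subunits did not overlap in this comparison, against 16.4% of all genes), and the log2-fold change was 0.58 ± 0.27. NDUFS5 held 1403, 1670 and 1307 normalised counts in control and 1563, 3603 and 1637 with IL-1β. It was higher in 3 of 3 lines and gave 0.53 ± 0.35 (adjusted p = 0.659). Without line 7 the log2-fold change was 0.39 for ATP5PF and 0.24 for NDUFS5.

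NDUFV2, the largest rise of the first batch, was lower with IL-1β in line 6 and higher in the others. Its normalised counts were 3826, 2958 and 3195 in control, 3163, 6239 and 4036 with IL-1β and 2778, 4972 and 3920 with IL-1β plus IL1Ra. The log2-fold change with IL-1β was 0.38 ± 0.30 (adjusted p = 0.744). UQCRC2 had 0.31 ± 0.28 (0.790) and SDHD 0.32 ± 0.26 (0.759), and NDUFA4 had 0.06 ± 0.33 (0.977). Without line 7 the values were 0.031 for NDUFV2, 0.11 for UQCRC2, 0.18 for SDHD and −0.056 for NDUFA4.

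NDUFA4L2 held 5658, 6004 and 602 normalised counts in the controls of lines 6 to 8, 2979, 1656 and 1011 with IL-1β and 6392, 4065 and 3194 with IL-1β plus IL1Ra. Its level was lower with IL-1β in lines 6 and 7 and higher in line 8, whose control was the lowest of the 9 libraries. The log2-fold change was −0.68 ± 0.85 (adjusted p = 0.863), or −0.089 without line 7. With both agents against control it was 0.67 ± 0.85 (adjusted p = 1.00), or 1.29 without line 7 and −0.19 without line 8. Between IL-1β plus IL1Ra and IL-1β it was 1.35 ± 0.85 (adjusted p = 1.00 by limma), higher in 3 of 3 lines and without overlap, against 6.47% of all genes without overlap, and no subunit was called there.

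IL-1β plus IL1Ra was compared with control and with IL-1β in the same fits, so these comparisons share libraries with the one above. Against control the median of the subunits was 0.0029, with 35 of 69 higher (51.1% of all genes), and line medians were −0.30, 0.22 and 0.11. Without line 7 the median was −0.10 and without line 6 it was 0.16. No subunit was called (background 0.0120%), none had an unadjusted p under 0.05 (5.67% of all genes) and none was called with the block (0.251%). SDHD had the smallest adjusted p, 0.955, from a log2-fold change of 0.51 ± 0.26, with 1709, 2193 and 2058 normalised counts in control and 2160, 3554 and 2883 with both agents. ATP5MD had 0.42 ± 0.30 (adjusted p = 1.00). Without line 7 these values were 0.41 and 0.24.

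Against IL-1β alone, 59 of 69 subunits had a lower mean with IL-1β plus IL1Ra, with a median of −0.19, and 25 were lower in every line, or 36.2%, against 16.8% of all genes. The line medians were −0.04, −0.52 and −0.03, so that most of the difference lay in line 7. Without line 7 the median was −0.03 and 29 of 69 were higher, against 10 of 69 with it (51.1% of all genes). Limma called none with or without the block (background 0% and 0.00599%), and 0 had an unadjusted p under 0.05, against 2.78% of all genes. The largest decrease was that of NDUFS5, at −0.54 ± 0.35 (adjusted p = 1.00), and NDUFV2 had −0.19 ± 0.30 and ATP5PF −0.41 ± 0.27. Without line 7 they were −0.38, −0.11 and −0.33, and NDUFA4L2 was 1.38.

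The machinery that builds and feeds the chain was read from lists in the first batch. Among assembly factors, 2 of 15 rose for complex I (NDUFAF2 by 0.90 ± 0.28, adjusted p = 0.0357), 0 of 4 for complex II, 3 of 15 for complex IV (TACO1 by 0.45, COA4 by 0.56) and 2 of 5 for complex V (ATPAF1 by 0.40). For complex III, 2 of 5 rose (TTC19 by 0.77) and LYRM7 fell by 0.58. Of all genes tested, 13.1% rose and 14.6% fell. The median log2-fold change was 0.05, 0.03, 0.22, 0.21 and 0.18 for complexes I to V.

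The mobile carrier CYCS (cytochrome c) gave 0.23 ± 0.21 (adjusted p = 0.445) and CYC1, the cytochrome c1 of complex III, 0.34 ± 0.13 (0.0711, 0.00578 with the block). Of 15 regulators of mitochondrial biogenesis 1 rose, ESRRA by 0.57 (adjusted p = 0.00357), and 1 fell, TFEB by 1.13 (0.00432). The shares of all genes were 13.1% and 14.6%. TFAM, which packages and transcribes mitochondrial DNA, gave 0.06 ± 0.094 (0.697) and NRF1 0.25 ± 0.11 (0.115).

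Among pathways that deliver electrons to the chain, 10 of 17 fatty acid oxidation genes rose and none fell, with a median of 0.41 (13.1% of all genes rose and 14.6% fell). The count was 5 without line 5, and with the line as a block 11 rose and 2 fell. ACAA2, the last thiolase of the spiral, rose by 1.35 (adjusted p = 0.000714), ETFDH, which hands electrons to ubiquinone, by 1.01 (0.00292) and ACADM by 0.89 (0.00136). On the TCA cycle list 4 of 18 rose, with a median of 0.20, among them MDH2 by 0.88 (0.00560). On the mitochondrial ribosome list 6 of 73 rose and 1 fell, with a median of 0.15. With the block 7 of 18 and 20 of 73 rose, and 1 and 2 fell. In the fit with the block, 20.9% of all genes rose and 22.4% fell.

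Cytosolic ribosomal protein genes went the other way, since 35 of 79 fell and none rose, with a median of −0.39 (14.6% of all genes fell). Only 10, 12 and 8 fell without lines 3, 4 and 5, while 75 of 79 had a lower mean in each of these fits. With the block 50 fell and 2 rose (22.4% and 20.9% of all genes). On the list of glycolysis and hypoxia genes 6 of 29 rose and 5 fell (13.1% and 14.6% of all genes), with a median of −0.20. Leaving out 1 line gave 3 to 5 that rose and 2 to 8 that fell, and 10 fell with the block (22.4% of all genes). ANKRD37, CA9 and SLC16A3 fell, with log2-fold changes of −2.44, −2.25 and −1.95 (adjusted p = 0.00387, 0.0351 and 0.0431), while PFKFB3 and EPAS1 rose by 1.63 and 1.48 (0.00150 and 0.00230). LDHA gave −0.60 ± 0.25 (0.0972) and PDK1 −1.14 ± 0.46 (0.0905, 0.0133 with the block). In the second batch no gene of these lists was called with IL-1β by limma without the block. The median was 0.46 for fatty acid oxidation, 0.13 for the TCA cycle, 0.07 for the mitochondrial ribosome and −0.33 for the cytosolic ribosome there, and 0.44 for glycolysis and hypoxia, with 22 of 29 genes higher. These medians moved with single lines. Without line 7 they were 0.16, 0.013, −0.19 and −0.71 for the first 4 lists, without line 6 the cytosolic ribosome median was 0.086, and without line 8 that of glycolysis and hypoxia was 0.12 with 16 of 29 higher. With equal library totals the TCA cycle and mitochondrial ribosome medians were −0.054 and −0.11, where the median of all genes was −0.19.

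**Figure D5:**
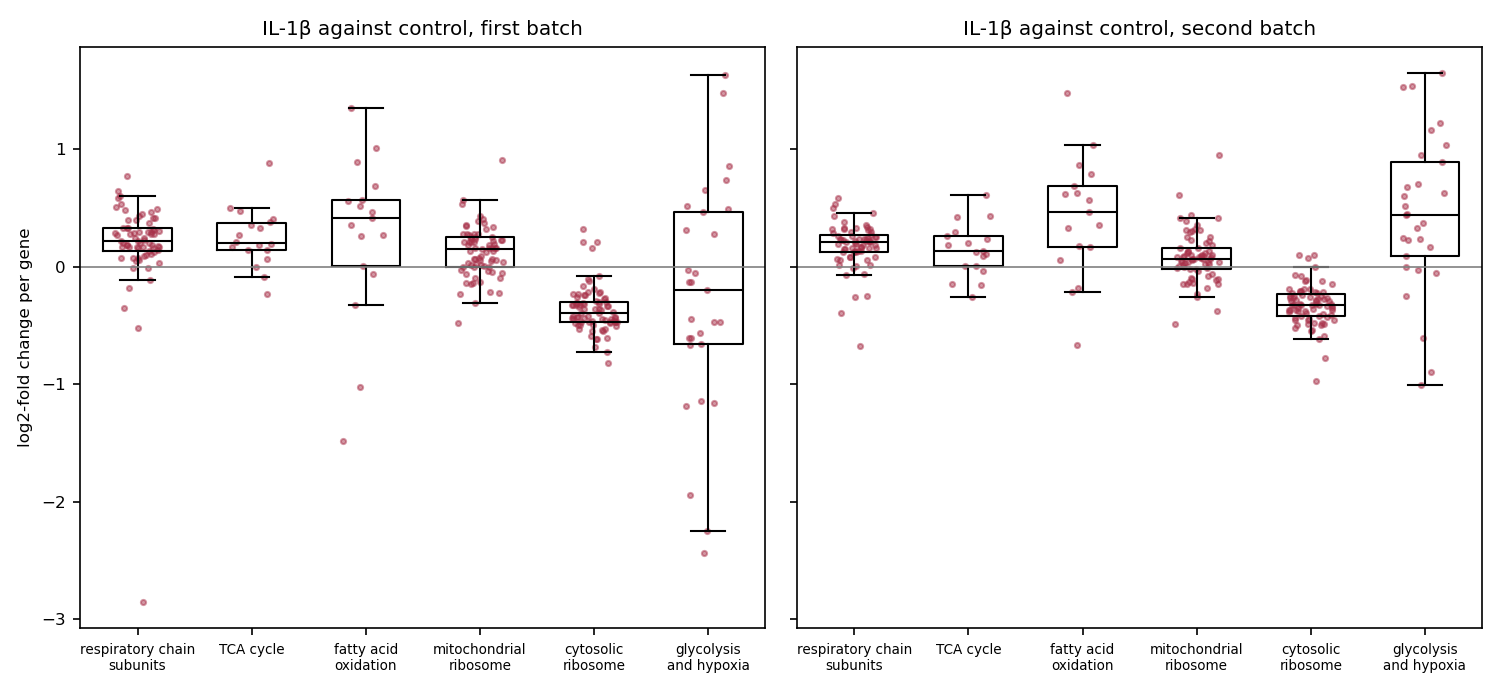
Log2-fold change with IL-1β against control for the genes of each list in the first batch (left) and the second (right). Points are genes and boxes give the median and quartiles. Medians in the first batch run from 0.41 for fatty acid oxidation and 0.22 for the respiratory chain subunits to −0.39 for the cytosolic ribosome.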

How the data were processed

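Total RNA of 19 libraries was sequenced as stranded mRNA. The signal values were deposited as normalised counts: the authors assigned reads to EquCab3.0 transcripts with Salmon, imported them with tximport and normalised each batch with DESeq2 1.36 in R 4.2.1. Salmon splits reads shared by similar transcripts, which can blur near-identical copies. Between 35.3% and 63.6% of a library's low values came within 0.02 of whole reads, so no count model was fitted.

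Here log2(normalised count + 1) was fitted with limma 3.58.1 in R 4.3.3 (empirical Bayes, variance trend). P-values were adjusted by Benjamini-Hochberg over the genes that reached 10 normalised counts in 5 or more libraries (first batch) or in 3 or more (second batch). This scale understates changes of low genes. Standard errors come from these fits. The line is named in the labels and pairs libraries: same-line deviations correlated at 0.35 to 0.58 and 0.54 to 0.79 in the batches, others at −0.62 to 0.29. The block on line was an alternative, with other pseudocounts, filters, scalings and lines left out. Scripts were tested on simulated data.

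The gene set and lists were chosen with earlier results of these data known. Named were SDH genes, isoform and regulatory subunits, the extremes of each complex, DE genes, the 10 smallest adjusted p-values of the first batch and untested genes. A called subunit is not reported here. Symbols matched a RefSeq table of another assembly for 69 of 73 genes, so coordinates and sequences are not given.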

Additional observations from a re-analysis of the deposited data

Results flagged for a closer look

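In 4 of 60 groups of 5 libraries examined, 1 library lay far from the other 4, with a gap to its nearest neighbour of more than 0.710 of the group's range. Chance flags about 1 group in 20. Only first-batch groups were examined, and the second batch, with 3 libraries per group, was not. The control library of line 2 held 2819 normalised counts of COX5A, the nearest other control 1882. The IL-1β library of line 4 accounted for the other 3, with 14408 of NDUFA4L2 (nearest 3541), 3313 of COX6B1 (nearest 3970) and 1515 of NDUFS3 (nearest 1809). Without line 4, NDUFS3 remained called and COX6B1 was called as well (adjusted p = 0.0448 by limma).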

How the results depend on the processing

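With the tenocyte line as a replicate block, 39 subunits were called in the first batch in place of 12, and the named genes that gained a call are given with both values. The block changed no second-batch call of the 69 subunits, while COX7A1, listed under a LOC number, gained one. The number of DE subunits in the first batch was 2 without the filter on low values (COX4I2 was added) and 0 without the variance trend, where NDUFA4L2 had an adjusted p of 0.0507. Leaving out 1 line gave 0 to 1 DE subunits and 2 to 18 called at any fold.

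Some values turned sign when a line was left out. SDHB in the first batch ran from −0.032 (without line 1) to 0.025 (without line 4), and NDUFA4 with IL-1β in the second batch from −0.056 (without line 7) to 0.17 (without line 6), and −0.12 with equal library totals. With both agents against control, NDUFA4L2 (0.67 with all lines) ran from −0.19 (without line 8) to 1.29 (without line 7) and NDUFV2 from −0.083 (without line 7) to 0.52 (without line 6). C1H15orf48 between the stimulated groups ran from −0.46 (without line 7) to 0.41 (without line 6). None of these passed the test under the settings named, and the causes were not tested. The second batch has 3 lines and lower totals.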

Other observations

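NDUFA4 has a further paralogue outside the naming rule, C1H15orf48 (NMES1), known to take the place of NDUFA4 in complex IV in inflamed cells. It was looked up after the values of NDUFA4 and NDUFA4L2 had been seen. Control libraries of lines 1 to 5 held 86.4, 82.8, 102, 32.8 and 49.0 normalised counts and IL-1β libraries 4067, 2771, 4301, 1060 and 982. The groups were far apart in every line, with a log2-fold change of 5.05 ± 0.49 (adjusted p = 0.000109 by limma, 8.97e-05 to 0.00147 over the alternatives).

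In the second batch C1H15orf48 held 105, 98.3 and 44.6 in the controls of lines 6 to 8, 711, 6476 and 2335 with IL-1β and 295, 8984 and 2969 with IL-1β plus IL1Ra. Both stimulated groups lay above every control. The log2-fold change against control was 4.82 ± 1.23 with IL-1β (adjusted p = 0.175, 0.0241 with the line as a block) and 4.67 ± 1.23 with both agents (0.584, 0.106 with the block), and between the stimulated groups it was −0.15 ± 1.23. Line 6 was the lowest stimulated line in both groups, and it also had the lowest median ratio of the subunits to control. In the first batch, line 5 had the lowest IL-1β level, 982, with the largest median ratio of the subunits, 0.32. Line 4, at 1060, had the smallest median ratio, 0.15, and line 3, the highest at 4301, had 0.31. A link between the 2 was not tested.

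NOS2 and SOD2, enzymes whose products or substrates act on the chain, rose in the first batch, with a log2-fold change for NOS2 (nitric oxide synthase) of 4.83 ± 1.31 (adjusted p = 0.0198) and for SOD2 (mitochondrial superoxide dismutase) of 3.04 ± 0.25 (3.70e-05). UCP2, an inner-membrane carrier, rose by 2.38 ± 0.50 (0.00596) and TOMM7 of the import pore by 1.12 ± 0.12 (0.000168), among 5 of 23 import and carrier genes that rose and 1 that fell. Of 12 genes for mitochondrial dynamics and mitophagy 1 rose and 2 fell, with BNIP3 lower by 1.34 (0.0344). Beside both lists, 13.1% of all genes rose and 14.6% fell. In the second batch SOD2 rose by 3.45 ± 0.45 (0.0297), and NOS2, UCP2, TOMM7 and BNIP3 did not pass the test without the block.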
